A study of Danio rerio with 6 samples.

Results

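The tandem red and green cone opsins of zebrafish are the 4 green opsin genes opn1mw1, opn1mw2, opn1mw3 and opn1mw4 and the 2 red opsin genes opn1lw1 and opn1lw2. The members were taken by gene name from the deposited table, and all 6 were found among its 14781 genes. RNA-seq was run on retinas of adult fish that were wild type (WT, 3 libraries) or homozygous for the stl888 allele of samd7 (samd7stl888/stl888, labelled samd7-/-, 3 libraries). All fish were males of 3 months, raised from crosses of heterozygotes and genotyped as adults. Both retinas of a fish were pooled into its library, so the replicates of a genotype were separate animals. The allele was inherited and so not limited to a cell type. In mice samd7 encodes a photoreceptor protein with a SAM domain, which works together with Polycomb repressive complexes.

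Cone opsins are the light-sensing receptors of cone outer segments, and each sets the wavelengths its cone absorbs. Zebrafish have UV cones with opn1sw1, blue cones with opn1sw2, and green and red cones, which stand side by side as double cones. The green and the red genes each arose by tandem duplication, and the copies of an array are used in different zones of the retina and at different ages. Red opsin transcription requires the thyroid hormone receptor thrb, and green opsin transcription requires the homeobox factors six7 and six6b. In zebrafish, thyroid hormone and retinoic acid shift red cones from opn1lw2 towards opn1lw1.

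The libraries held between 20186266 and 29117026 reads in genes. Values are normalised read counts, that is, reads per gene divided by a size factor for each library, which ranged from 0.863 to 1.18. They are given for wild-type replicates 1, 2 and 3 and then for mutant replicates 1, 2 and 3, with means ± SD of n = 3 fish. A log2 change is the mutant mean of log2(value + 1) less the wild-type mean, and its p was adjusted over the 11335 genes tested by the Benjamini-Hochberg method in limma. Wild-type replicate 1 stood apart from the other wild-type fish in several opsins. Of these genes 1.78% were called lower and 0.829% higher at an adjusted p of 0.05, so 31.8% of the calls were higher. Scaled by library totals, 93.4% of the calls were higher, since the median change of all genes moved from 0.013 to 0.36. The mutated gene itself had 4196, 4557 and 5186 in wild type and 2471, 5121 and 3642 in the mutants, so its overlapping level did not check the genotype labels.

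All 4 green opsins fell to near 0 in the mutants, the red opsin opn1lw2 fell to 2.68% of wild type, and opn1lw1 kept the highest mutant level relative to wild type of the 6 genes, at 33.9%. Of the 6 genes, 5 were called lower, beside 1.78% of all genes. The 4 green opsins met the filter on low values through the 3 wild-type libraries, so they entered the test whatever their mutant level. Their mutant values alone would not have met it. In RNA of a whole retina, fewer red and green cones and less opsin RNA per cone cannot be told apart.

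**Figure D1:**
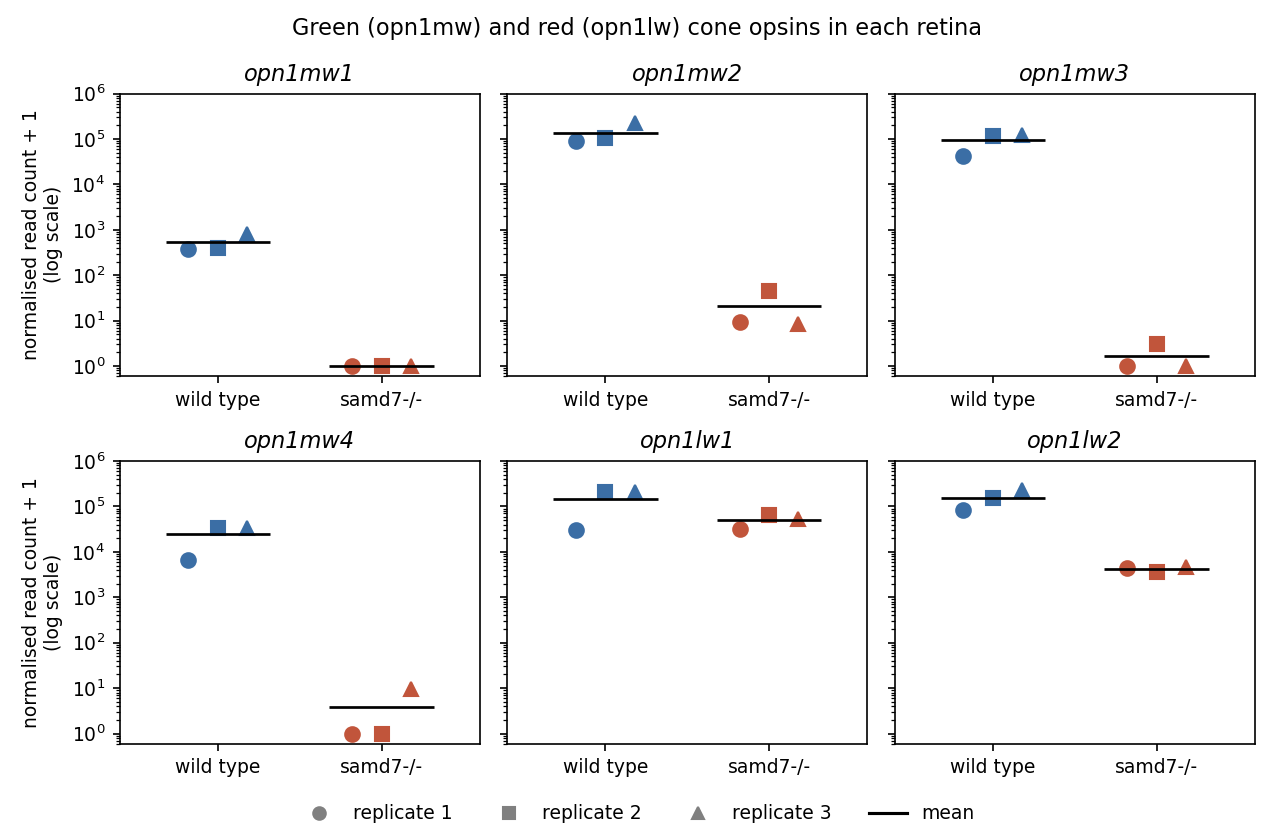
Normalised read count + 1 of each opsin (log axis) in the 3 wild-type and 3 samd7-/- libraries; each symbol is 1 fish and each line the mean of a genotype. The genotypes are separated for all genes but opn1lw1, where wild-type replicate 1 (30002) lies below all 3 mutants. Of all genes tested, 14.8% were lower in the mutants without overlap.

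The green opsin opn1mw2 held 88381, 104750 and 220327 normalised reads in wild type. In the mutants it held 8.40, 45.0 and 7.62, which were 9, 43 and 9 reads. The lowest wild-type fish lay 1965-fold above the highest mutant, and the fall passed the test (log2 change -13.00, SE 0.70, adjusted p = 0.00282, limma).

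The green opsin opn1mw3 was at 41201, 118873 and 121177 in wild type. It was at 0, 2.09 and 0 in the mutants, where its only 2 reads came from mutant replicate 2. The log2 change was -15.82 (SE 0.60, adjusted p = 0.000574, limma). With so few mutant reads its size depends on the number added before the log, from -12.95 with 10 added to -18.20 with 0.1 added, and the call was made with either.

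The green opsin opn1mw4 was at 6478, 33130 and 34172 in wild type and at 0, 0 and 8.46 in the mutants. All of its 10 mutant reads lay in replicate 3, and wild-type replicate 1 held the least among the wild-type fish. The log2 change was -13.17 (SE 1.07, adjusted p = 0.00695, limma), and it ranged from -10.63 with 10 added to -15.43 with 0.1 added. This was the least certain of the green calls, with an adjusted p of 0.0550 when wild-type replicate 2 was left out and of 0.0679 with voom.

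The green opsin opn1mw1 was at 382, 403 and 801 in wild type and had no read in any mutant library. It passed the test (log2 change -8.96, adjusted p = 0.000574, limma), and was at least 187-fold lower when 3 reads per library are taken as the floor. The log2 change ranged from -5.67 with 10 added to -12.28 with 0.1 added. The call was kept with any 1 library left out (highest adjusted p 0.0132). With every mutant at 0, leaving out a mutant could not move the change. Over the 3 mutant libraries a count of 0 reads has an exact two-sided 95% Poisson interval that ends at 3.69 reads. The mutant reads of the 4 green genes together numbered 9, 45 and 19, or 73 in all, with an exact 95% Poisson interval of 57.2 to 91.8. These limits treat reads as independent, which copies made by PCR are not, and they leave out differences between fish. The wild-type libraries held 155899, 221981 and 327777 green opsin reads.

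The red opsin opn1lw2 was at 81833, 156394 and 231815 in wild type and at 4303, 3556 and 4760 in the mutants. The mutant fish lay closer together, while the wild-type fish spanned 2.83-fold, and the groups stood 17.2-fold apart at their nearest fish. The fall passed the test (log2 change -5.10, SE 0.37, adjusted p = 0.00390, limma), also with any 1 library left out (highest adjusted p 0.0398). Unlike the green opsins, opn1lw2 was well above counting noise in every mutant, with 4610, 3399 and 5624 reads.

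Its tandem copy opn1lw1 was at 30002, 207990 and 208775 in wild type and at 31783, 66010 and 53561 in the mutants. Wild-type replicate 1 lay below every mutant, whereas the other wild-type fish were at least 3.15-fold above every mutant. The log2 change of -1.18 (SE 0.79, 95% interval -3.08 to 0.72) did not pass the test (adjusted p = 0.448, limma). Without wild-type replicate 1 it passed (log2 change -2.11, adjusted p = 0.0329), and without any other library it did not (adjusted p from 0.475 to 0.711). In the authors' deposited table its log2 fold change was -1.56 with an adjusted p of 0.0712, against 1.89e-45 for opn1lw2.

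Because neighbouring copies are similar in sequence and may exchange reads, the test was repeated with the copies of each array added together. The green sum was at 136441, 257155 and 376476 in wild type and at 8.40, 47.1 and 16.1 in the mutants, a log2 change of -13.55 with SE 0.65 (adjusted p = 0.00403, limma over 11331 rows). This value does not depend on how counted reads were divided between the green copies. Like the red sum, it would still miss reads left uncounted because they match several copies. Of all rows in that fit, 1.69% were called lower, and 1.75% in the fit with all 6 copies added. The red sum was at 111835, 364384 and 440590 in wild type and at 36086, 69566 and 58321 in the mutants. Its genotypes did not overlap, and 14.8% of all genes tested were lower without overlap. The red sum was not called (log2 change -2.31, SE 0.55, adjusted p = 0.0854, limma). It was called when wild-type replicate 1 was left out (adjusted p = 0.0146), with DESeq2 (8.04e-06), with library totals as the scaling (0.0490) and with a replicate block (0.0281).

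All 6 copies added together fell from 562294 ± 288986 to 54682 ± 17056, which is 9.72% of wild type (log2 change -3.25, SE 0.48, adjusted p = 0.0373, limma over 11330 rows). Most of what was left in the mutants was opn1lw1. The call of this sum was kept without wild-type replicate 1 (adjusted p = 0.00940) and lost without any other library, with adjusted p of 0.126 and 0.0739 without wild-type replicates 2 and 3 and of 0.156, 0.0513 and 0.169 without mutant replicates 1, 2 and 3.

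**Figure D2:**
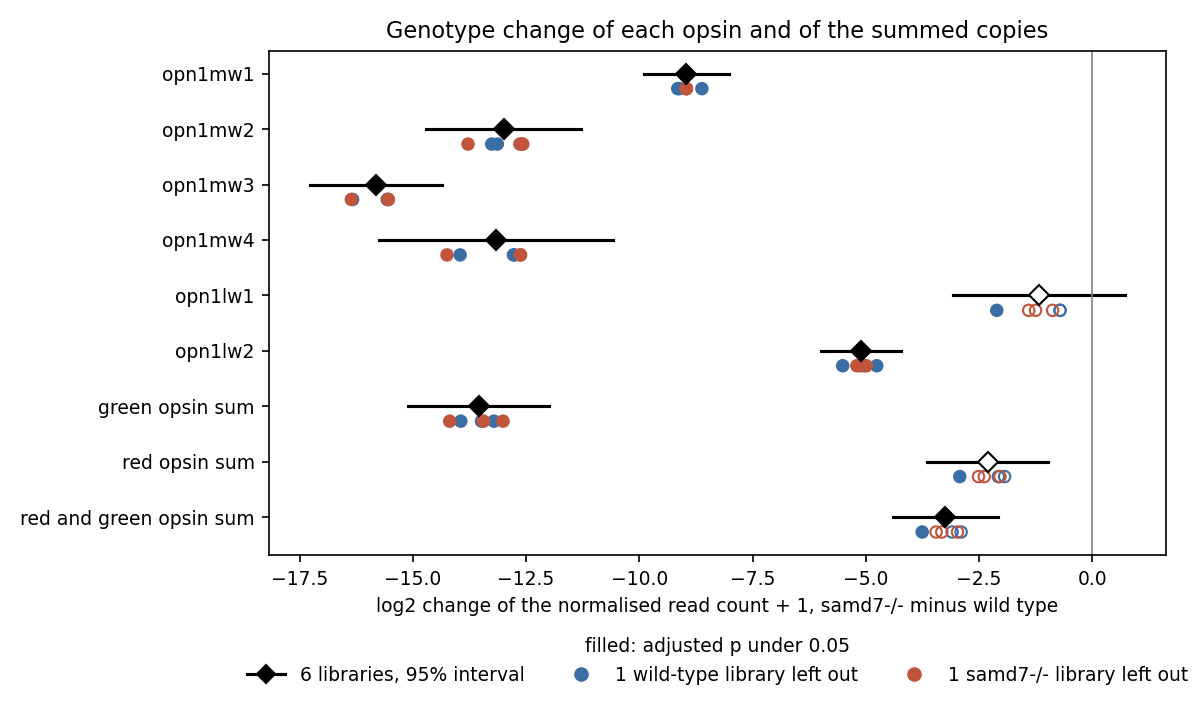
Log2 change of each opsin and of the summed copies (x axis, mutant less wild type, in log2(value + 1)), with the 95% interval of the limma fit before adjustment over genes (black) and the values with 1 library left out (circles); filled symbols had an adjusted p under 0.05. With 1 library left out, opn1mw4, opn1lw1, the red sum and the sum of all 6 change sides of the threshold at least once (the open circle of opn1mw4 at -12.78 lies under a filled one). The fitted values of opn1mw1, opn1mw3 and opn1mw4, which had no read in at least 2 mutants, depend on the 1 added to each value.

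The balance of the copies within the red array was separated between the genotypes. Unlike the red sum, it depends on how counted reads were divided between the copies. Whether reads that match several copies were counted at all is not given, and this bears on the balance and on the sum. The share of opn1lw1 in the red opsin reads was 26.8%, 57.1% and 47.4% in wild type and 88.1%, 94.9% and 91.8% in the mutants. Every mutant was thus above every wild-type fish, including wild-type replicate 1, whose opn1lw1 level was low. Written as a log2 ratio, opn1lw1 over opn1lw2 stood at -1.45, 0.41 and -0.15 in wild type and 2.88, 4.21 and 3.49 in the mutants. The difference of 3.93 on the log2 scale had p = 0.1 in an exact two-sided permutation test, the smallest that 3 against 3 can give, and 0.125 adjusted over the 5 shares and ratios tested.

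Green opsins made up 55.0%, 41.4% and 46.1% of the red and green opsin reads in wild type and 0.0233%, 0.0676% and 0.0276% in the mutants. Red and green opsins together made up 41.8%, 59.3% and 60.6% of all cone opsin reads in wild type and 3.94%, 6.80% and 4.64% in the mutants. Both shares were separated between genotypes (exact two-sided permutation test, p = 0.1 and 0.125 after adjustment for each). Shares of a sum are tied to one another, and the UV opsin opn1sw1 was 3.02-fold higher in the mutants. They are shares of reads and are not corrected for transcript length.

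**Figure D3:**
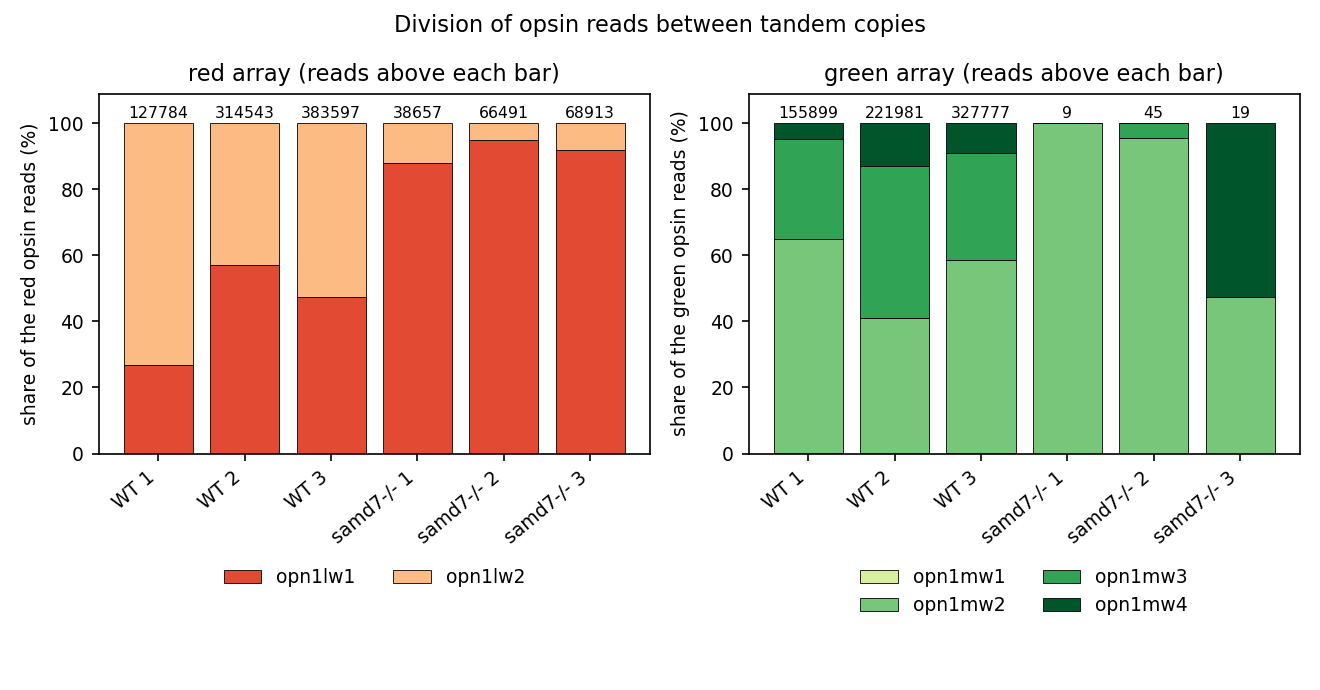
Share of each tandem copy in the reads of its array (y axis, percent) in each library, with the number of reads of the array above each bar. In the red array opn1lw1 takes 26.8% to 57.1% in wild type and 88.1% to 94.9% in samd7-/-, and the green bars of the mutants rest on 9, 45 and 19 reads. The shares depend on how reads that match several copies were assigned.

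Within the green array the wild-type fish also divided their reads unequally. The share of opn1mw2 was 64.8%, 40.7% and 58.5%, that of opn1mw3 30.2%, 46.2% and 32.2%, and that of opn1mw4 4.75%, 12.9% and 9.08%. The share of opn1mw1 was 0.280%, 0.157% and 0.213%. Wild-type replicate 2 had more opn1mw3 than opn1mw2 and the other wild-type fish the reverse. In mutant replicates 1 and 2 the few reads were all or mostly opn1mw2, at 9 of 9 and 43 of 45. Mutant replicate 3 had 9 of 19 from opn1mw2 and 10 from opn1mw4. The share of opn1mw2 overlapped between genotypes (exact two-sided permutation test, p = 0.3, also after adjustment over the 5).

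The opsins of the arrays varied widely between wild-type fish. The SD of log2(value + 1) over the 3 wild-type libraries was 1.61 for opn1lw1 and 1.37 for opn1mw4, more than for 98.7% and 97.8% of all genes tested. It was 0.89 for opn1mw3, 0.76 for opn1lw2, 0.70 for opn1mw2 and 0.59 for opn1mw1, against a median of 0.24 over all genes tested. Over the 3374 genes with a wild-type mean of at least 1000, which all the opsins but opn1mw1 had, the median was 0.15. The lowest value of all 6 opsins was in wild-type replicate 1, and for opn1lw1 it was 6.96-fold below the highest. The cone arrestin arr3a, which ends signalling of red and green cones, went the other way, with its highest value in that fish (239837, against 202706 and 123364). The cone transducin gnat2 was also highest there (288727, against 223203 and 223949), and so was thrb (4760, against 4553 and 2925). Cone genes did not all go this way. In the same fish pde6h (521790, against 1171454 and 1040866) and gngt2a (45120, against 70153 and 55291) were at their lowest wild-type values. Among the mutants opn1lw2 had an SD of 0.21 and opn1lw1 of 0.54, against a median of 0.18 over all genes tested and 0.12 over those 3374 genes. The SD was 1.36 for opn1mw2, 0.94 for opn1mw3 and 1.87 for opn1mw4, on few or no mutant reads.

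By RefSeq's gene table of GRCz12tu, used for gene order only, the 4 green opsins follow one another between slc6a22.2 and synprb, and the red opsins lie between the microRNA gene mir726 and gnl3l. Of the 5 nearest protein-coding genes on each side of the green array, 6 could be tested and none was called, beside 2.61% of all genes in either direction, with log2 changes from -0.63 to 0.45 and adjusted p of at least 0.466. Of those around the red array 9 could be tested and none was called, with log2 changes from -0.34 to 1.89 and adjusted p of at least 0.0871. A count of 0 among so few genes is near that share and says nothing particular about the flanks. The nearest protein-coding gene on the opn1lw1 side is the blue opsin opn1sw2, at 203769, 274179 and 329920 in wild type and at 432434, 486676 and 616393 in the mutants. All of its mutants were above all wild-type fish, as for 13.3% of all genes, yet it was not called (log2 change 0.94, SE 0.23, adjusted p = 0.0871, limma). It passed with DESeq2 (adjusted p = 0.00202), library totals (0.0225) and a replicate block (0.0431). On the other side gnl3l, a nucleolar GTPase gene, was at 561 ± 28.6 and 593 ± 36.6 (log2 change 0.079, adjusted p = 0.708, limma). The transporter gene next to opn1mw1, named slc6a13l in the deposited table, was at 5.79 to 11.5 in wild type and at 0, 2.09 and 0 in the mutants, which was too low to be tested.

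**Figure D4:**
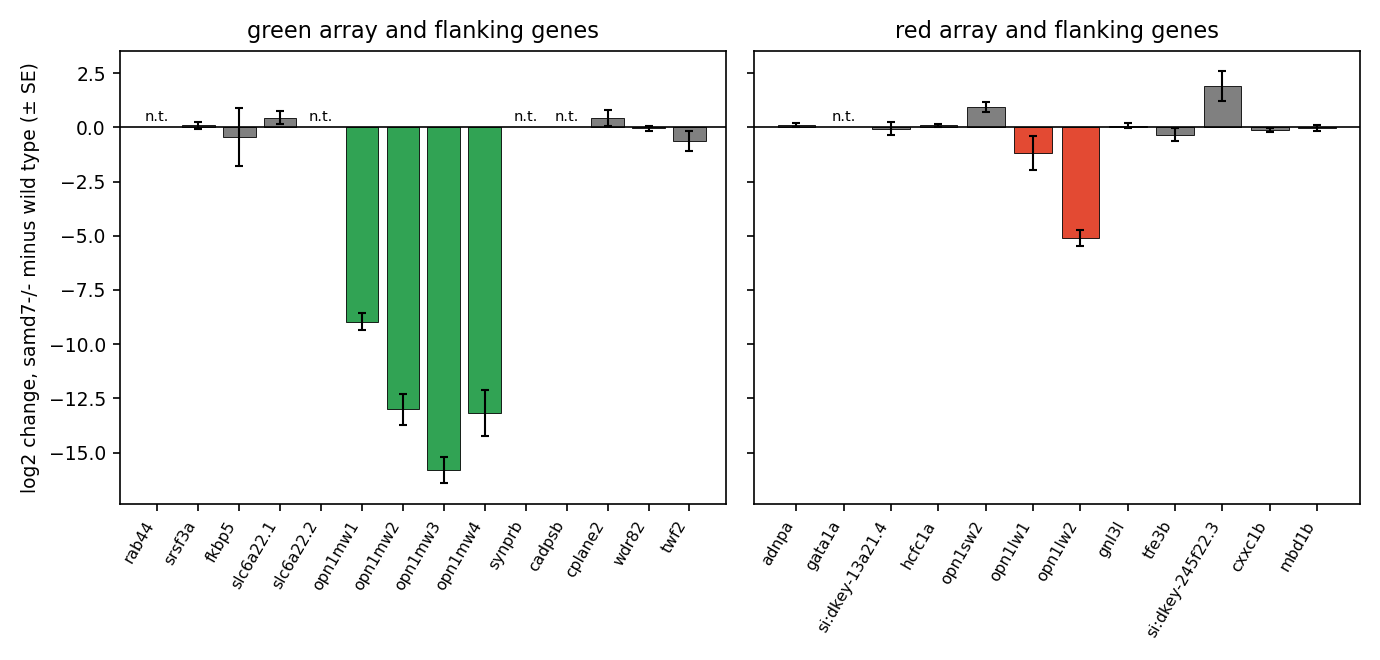
Log2 change (mutant less wild type, in log2(value + 1)) of the opsins (coloured) and of the 5 nearest protein-coding genes on each side (grey) in their order on GRCz12tu, with SE; n.t. marks genes not tested. The green opsins and opn1lw2 lie below all tested neighbours, none of which was called, while opn1lw1 (-1.18) was not called either.

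Likeness of other genes to the opsins was measured as the root mean square difference between profiles of log2(value + 1) over the 6 libraries, each minus its mean, so that a value of 1 means profiles that lie apart by about 1 log2 unit. The measure grows with the size of a change, so its values are not compared between the opsins. Pearson's r over the 6 libraries, given as a description, was 0.851 to 0.981 for the 5 genes nearest to the green sum, 0.939 to 0.967 for opn1lw2 and 0.933 to 0.986 for opn1lw1. Genes near the green sum or opn1lw2 are lower in the mutants by choice, so their changes and calls are a description. The gene nearest to the green sum was arr3a, at 3.05, with 239837, 202706 and 123364 in wild type and 1437, 654 and 384 in the mutants, a log2 change of -7.99 with SE 0.50 (adjusted p = 0.00324, limma). The next were capsla, zgc:77118, nptx2b and fam212ab, at 4.91 to 5.19, with log2 changes between -4.13 and -3.27. Of these, capsla (adjusted p = 0.0988, limma) and fam212ab (0.0651) were not called. Their mutant values were low, at 13.1, 14.6 and 0 for capsla and 3.73, 20.9 and 16.1 for fam212ab. Only 1 gene outside the arrays, arr3a, had a log2 change below that of opn1lw2.

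For opn1lw2 the nearest were zgc:77118 at 1.02, the leucine-rich repeat gene lrit3b at 1.08, the neuronal pentraxin gene nptx2b at 1.17, zgc:55413 at 1.20 and ttc36 at 1.24. Their mutant means were 8.33% to 14.2% of wild type. The profile of lrit3b was 132, 262 and 264 in wild type and 16.8, 16.7 and 44.9 in the mutants. All but ttc36 (adjusted p = 0.0509, and 0.0379 without wild-type replicate 1) were called lower, with nptx2b at an adjusted p of 0.0132. In the mutants zgc:77118 was at 2.80, 6.28 and 7.62, so it met the filter on low values only through wild type. For nptx2b the adjusted p rose to 0.0706 when wild-type replicate 2 was left out, to 0.0677 for mutant replicate 1 and to 0.0531 for mutant replicate 3. The calls of zgc:77118 and zgc:55413 were lost when any library but wild-type replicate 1 was left out, and so was that of lrit3b, except for mutant replicate 3, with adjusted p up to 0.152.

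Nearest to opn1lw1 were aanat2, which encodes the rate-limiting enzyme of melatonin synthesis, at 0.37, cfap36 at 0.39, the protein kinase A subunit gene prkar2ab at 0.42, rd3, a regulator of photoreceptor guanylate cyclase, at 0.43, and the dominant-negative helix-loop-helix gene id2b at 0.43. The values of aanat2 were 4173, 27148 and 37671 in wild type and 3667, 11779 and 13371 in the mutants. Those of rd3 were 1749, 6208 and 5419 in wild type and 1687, 2144 and 1874 in the mutants. The choice by profile fixes that these genes, like opn1lw1, were low in wild-type replicate 1 and mutant replicate 1. None of the 5 passed the test with all libraries (adjusted p from 0.275 to 0.711, limma), and rd3 passed without wild-type replicate 1 (adjusted p = 0.00670).

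**Figure D5:**
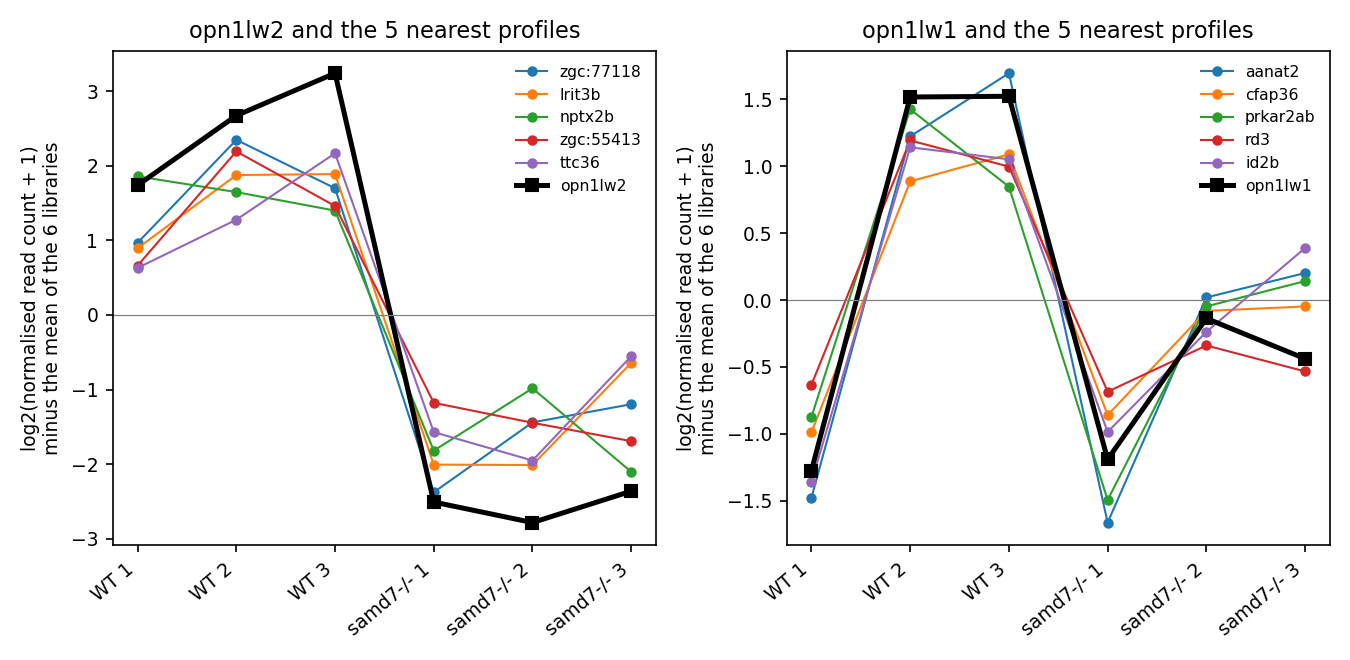
Profiles of opn1lw2 (left) and opn1lw1 (right) in black with the 5 nearest genes in colour, as log2(normalised read count + 1) minus the mean of the 6 libraries. The profiles of opn1lw2 separate the genotypes, whereas those of opn1lw1 are low in wild-type replicate 1 and in mutant replicate 1.

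Factors of cone opsin choice changed in both directions. Of 27 tested, thrb and the rod factor nrl fell, and skor1b, prdm1a, tbx2b and tbx2a rose, beside 1.78% and 0.829% of all genes. The red cone factor thrb was at 4760, 4553 and 2925 in wild type and at 600, 1074 and 849 in the mutants, with no overlap (log2 change -2.28, SE 0.27, adjusted p = 0.0200, limma). Of all genes tested, 14.8% were lower without overlap. The co-repressor gene skor1b rose from 71.7 ± 12.2 to 210 ± 40.5 (adjusted p = 0.0303), the repressor prdm1a from 250 ± 50.6 to 1360 ± 553 (adjusted p = 0.0319), and the UV cone factor tbx2b from 4245 ± 299 to 6586 ± 329 (adjusted p = 0.0360). The factors six7 and six6b, on which green opsin transcription depends, did not pass the test. For six7 the values were 6627, 8006 and 2433 in wild type and 2291, 2011 and 2329 in the mutants, a log2 change of -1.20 with SE 0.43 (adjusted p = 0.191, limma), and its adjusted p was 0.0143 when wild-type replicate 3 was left out and 0.00881 with DESeq2. For six6b they were 1917, 1991 and 1758 and 2171, 1867 and 1980 (log2 change 0.086, adjusted p = 0.667, limma).

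When wild-type replicate 2 or mutant replicate 1 or 3 was left out, none of the 27 was called, and thrb had an adjusted p of 0.0865, 0.0677 and 0.111. Without wild-type replicate 3, thrb and six7 were the 2 called lower and no factor was called higher. The call of tbx2a was lost with any 1 library left out (adjusted p from 0.0517 to 0.176), with voom (0.0506), with the replicate block (0.0670) and with limma without trend (0.0936). Limma without trend called none of the 27, beside 30 of all genes tested. With voom 1 was called lower and 2 higher, beside 119 and 40 of all genes. DESeq2 called 6 lower and 6 higher, beside 6.64% and 4.14% of all genes. After scaling by library totals 7 were called higher, beside 17.5%. Of all genes, 0.174%, 0.253% and 0.2% were called in either direction without wild-type replicate 2, mutant replicate 1 and mutant replicate 3, and 0.661% without wild-type replicate 3.

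In thyroid hormone signalling, 1 of 18 genes tested fell, namely thrb, and none rose, beside 1.78% and 0.829% of all genes. The co-activator gene ncoa2 was at 404 ± 32.3 and 257 ± 38.6 (adjusted p = 0.0765), the retinoid X receptor genes rxrga at 681 ± 94.3 and 446 ± 41.2 (adjusted p = 0.0773) and rxraa at 434 ± 73.0 and 530 ± 91.4 (adjusted p = 0.414). In retinoic acid signalling, 1 of 18 genes rose and none fell, beside the same shares. This was crabp1a, a binding protein of retinoic acid, from 1824 ± 95.7 to 2844 ± 74.7 (log2 change 0.64, adjusted p = 0.0239, limma), and its call was lost without wild-type replicates 2 (0.0974) or 3 (0.0688) and without mutant replicates 1 (0.114) or 3 (0.148). After scaling by library totals, 6 of these 18 genes rose, beside 17.5% of all genes. The next in order of p were aldh8a1 at 7.35 ± 2.97 and 25.1 ± 5.10 (adjusted p = 0.0930), crabp2a at 326 ± 85.8 and 618 ± 137 (0.0987) and crabp2b at 1245 ± 31.9 and 1494 ± 23.7 (0.126). Of these, aldh8a1 met the filter on low values through the mutants. For both lists the median log2 change, at -0.037 and 0.33, stood beside 0.013 over all genes. With limma without trend no gene of either list was called, beside 30 of all genes tested. DESeq2 called 3 thyroid hormone genes lower and 3 retinoic acid genes higher, beside 6.64% and 4.14% of all genes.

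Of 21 cone phototransduction genes tested, which red and green cones share in part with blue and UV cones, 7 fell and none rose, beside 1.78% of all genes called lower. The median log2 change of the list was -1.21. Their summed level was 1906563 to 2132174 in wild type and 780956 to 881327 in the mutants. The largest part of this sum was pde6h, at 911370 ± 343646 and 335286 ± 34442, which was not called (adjusted p = 0.0767, limma). The calcium exchanger gene slc24a2 fell from 22577 ± 1552 to 6990 ± 609 (adjusted p = 0.00324), the guanylate cyclase gene gc3 from 10252 ± 2090 to 3571 ± 642 (adjusted p = 0.0239) and gnat2 from 245293 ± 37617 to 108361 ± 6098 (adjusted p = 0.0244). When wild-type replicate 2 or mutant replicate 1 or 3 was left out, the number called lower was 2, namely arr3a and slc24a2, and without wild-type replicate 3 it was 3. Of all genes, 0.113%, 0.183%, 0.165% and 0.505% were called lower in these fits. With limma without trend 2 of the 21 were called lower, beside 22 of all genes tested. DESeq2 called 13 of the 21 lower, beside 6.64% of all genes. Of 16 genes of the cone retinoid cycle none was called in the main test. DESeq2 called 2 of them lower, beside 6.64% of all genes, limma with the replicate block 1 lower (rbp4l, adjusted p = 0.0352), beside 1.84%, and limma after scaling by library totals 1 higher, beside 17.5%. Their summed level did not overlap, at 458431 to 846522 in wild type and 300992 to 339404 in the mutants. Most of this sum was 1 gene, rbp4l, at 740722, 768991 and 394004 in wild type and 284357, 300404 and 214272 in the mutants. Of all genes tested, 14.8% were lower without overlap.

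Among the marker lists of other cells, only those of blue and UV cones, rods and ganglion cells held called genes in the main test. Of all genes, for comparison with the counts of markers, 1.78% were called lower and 0.829% higher. Of 8 blue and UV cone markers 4 rose, namely opn1sw1 and skor1b, tbx2b and tbx2a, which were already counted among the factors above. None was called when wild-type replicate 2 or mutant replicates 1 or 3 were left out. Limma without trend called none of the 8 either, beside 30 of all genes tested. DESeq2 called 6 of the 8 higher, beside 4.14% of all genes, and scaling by library totals 7, beside 17.5%. The summed level of the 8 markers was 483790 to 581947 in wild type and 1056272 to 1286246 in the mutants. Most of this sum was opn1sw1 and opn1sw2, of which opn1sw2 was not called (adjusted p = 0.0871, limma). Of 15 rod markers 1 fell, namely nrl, which was also counted among the factors. Without mutant replicate 2, 3 rod markers were called lower, beside 156 of all genes. Without wild-type replicates 2 or 3 or mutant replicates 1 or 3 none was called. The sum of the rod markers overlapped (2012876 to 3286914 and 617652 to 2219433). The log2 change was negative for 14 of the 15, with a median of -1.01, beside -1.21 for the cone list. None of 14 tested Müller glia markers was called in the main test, though their sum did not overlap (297404 to 313134 and 327046 to 357832). DESeq2 called 2 of them higher, beside 4.14% of all genes, and scaling by library totals 4, beside 17.5%. The largest part of this sum was glula, which overlapped (148958 to 161694 and 160950 to 195793). Of all genes tested, 13.3% were higher without overlap. Of 16 ganglion cell markers 1 rose, and none was called when any library but wild-type replicate 1 was left out. Without that fish 4 were called higher, beside 1.15% of all genes, with DESeq2 6, beside 4.14%, and after scaling by library totals 11, beside 17.5%. The log2 change was negative for 1 of the 16, with a median of 0.73, and the sum was 23258 to 33445 in wild type and 39410 to 43082 in the mutants. The sums of bipolar, amacrine, horizontal, pigment epithelium, lens, and microglia and blood markers overlapped, and none of their genes was called in the main test. DESeq2 called 1 bipolar, 1 amacrine and 2 horizontal cell markers lower, beside 6.64% of all genes. After scaling by library totals 3, 3 and 2 of them were called higher, beside 17.5%. Pigment epithelium markers were at 13502 in wild-type replicate 1, against 48837 and 40330 in the other wild-type fish. The part of these differences in the opsin levels was not tested.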

How the data were processed

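Per the labels' protocols, cDNA was amplified from retinal RNA with a SMARTer kit and sequenced as paired-end reads. The submitters' processing notes name the build danRer10, R 4.1.3 with DESeq2 1.34.0, and HTSeq 0.9.1, STAR 2.7.2b and Trim Galore 0.6.1. How strand and reads that match several copies were handled is not given in the sources used here. Signal values deposited by the authors are read counts divided by a size factor per library. All were whole multiples of 1 step per library within 0.01 reads, so reads were recovered, 20186266 to 29117026 per library. The log2 fold changes and p-values deposited by the authors were used only where named.

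The main test was limma 3.58.1 (R 4.3.3) with trend and robust moderation on log2(value + 1), for 11335 genes with a value of at least 10 in as many libraries as the smaller group has, at a Benjamini-Hochberg adjusted p of 0.05. The replicates were separate fish. The fit was repeated with the copies of an array summed. Shares were compared by exact permutation tests. Alternatives were TMM, upper-quartile and library-total scaling, no filter and a filter at 50, pseudocounts of 0.1 and 10, limma without trend, voom, DESeq2 1.42.0, edgeR 4.0.16, a replicate block, a threshold of 0.01, 1 read added for shares and each library left out. The count test of edgeR on the recovered reads called 277 genes. The tools were tested on simulated counts. No replicate was a copy of another (chi-square per degree of freedom of at least 52.8).

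Named genes were the 6 opsins, samd7, the 5 nearest profiles of the green sum, opn1lw2 and opn1lw1, and, of each pathway list discussed, the smallest p values, at most 4 genes. Genes flanking the arrays, six7, six6b, glula, the means of pde6h and the single-fish values of gnat2, pde6h, gngt2a and rbp4l were added after their values were seen. The members, lists and tests were chosen with earlier results of these data known. Sequences and transcript lengths were not used here.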

Additional observations from a re-analysis of the deposited data

How the results depend on the processing

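The calls of opn1mw1, opn1mw2, opn1mw3, opn1lw2 and the green sum, and the direction of all 6 opsins and their sums, held in all 18 alternatives run for each. The call of opn1mw4 was lost with voom (log2 change -13.90) and without wild-type replicate 2, and its log2 change ranged from -14.25 to -12.62 with 1 library left out. For opn1lw1, which passed only without wild-type replicate 1, this range was -2.11 to -0.71. The red sum passed with library totals (log2 change -1.96), DESeq2 (-2.48), the replicate block (-2.31) and without wild-type replicate 1, with a range of -2.93 to -1.94 over the libraries left out. The sum of all 6 lost its call with limma without trend (-3.25, adjusted p = 0.0714) and without 5 of the 6 libraries, with a range of -3.76 to -2.90. The 5 shares and ratios kept their direction in the 7 alternatives run for each.

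The number of genes called was 296, of which 202 were lower. It was 2128 with library totals, 1222 with DESeq2, 159 with voom, 30 with limma without trend and 23 at an adjusted p of 0.01. With 1 library left out it ranged from 20 to 377, with 20 and 76 without wild-type replicates 2 and 3 and 29 and 23 without mutant replicates 1 and 3. The cause was not tested. With the replicate block it was 289. Whether the numbers pair the fish stays undecided, since deviations from a mean of only 3 fish cannot settle it. Across genes these deviations correlated between same-numbered fish at 0.186, -0.141 and 0.235. For wild-type replicates 1 and 3 the same-numbered mutant had the highest correlation. Wild-type replicate 2 correlated best with mutant replicate 3, at 0.174.

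Depth did not limit the red opsins, which had at least 3399 reads in every library, while the mutant levels of the green opsins rest on 73 reads.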
